A study of Mus musculus with 12 samples.

Results

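The genes described are 10 members of 2 families of calcium-regulated proteins, S100a4, S100a6, S100a8, S100a9, S100a10, S100a11, Anxa1, Anxa2, Anxa4 and Anxa5. They were chosen by symbol from a table of 25919 genes, and all 10 had enough counts to be tested, as did 9852 genes in all. All libraries came from liver of C57BL/6 mice, 7 weeks old. One group is labelled Kupffer cells (macrophages resident in the liver) and day 0, with 2 libraries. The other is labelled CD40, the name of a costimulatory receptor on myeloid and B cells, and day 2, with 4 libraries. No treatment, allele, sort or start of the day count is given in the labels, nor whether libraries are separate animals. Since the groups differ in label and in day at once, every difference below is between these groups and cannot be assigned to either, and every p-value rests on library-to-library spread that could be technical.

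S100 proteins are small EF-hand proteins that change shape on binding calcium and then grip partner proteins. S100A8 and S100A9 pair into calprotectin, a metal-sequestering complex held in quantity by neutrophils and monocytes. Annexins are larger proteins that bind acidic phospholipids in the presence of calcium, and several dock S100 dimers through their N-terminal tails: annexin A2 with S100A10, and annexin A1 with S100A11. In macrophages these proteins are known for roles in migration, plasminogen activation, membrane repair and the handling of dying cells.

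Promoter sequence is shown for 6 of the genes. They are 4 of the 5 that were higher in CD40 day 2 (S100a4, S100a11, Anxa2 and Anxa4) and the S100a8 and S100a9 pair, which did not pass the test. S100a6, also higher, is left out, and its stretch held no match to the motifs searched. The higher genes printed are thus only those with a match. Each stretch is the reference sequence of 150 bases that ends before the RefSeq or the GENCODE start of the gene, whichever lies further upstream, from the RefSeq promoter table (GRCm38.p6), written 5′ to 3′ on the strand of the gene. Capitals mark matches, on either strand and with no overlap between motifs, to a small set of motifs. AP-1, a dimer of Fos and Jun proteins, was searched as TGANTCA. The myeloid factors of the C/EBP family were searched as TTNNGNAA, and the ETS core that PU.1 binds as GAGGAA. The other motifs were STAT, searched as TTCNNNGAA, NF-kappaB, searched by its consensus, and the core promoter element TATA, searched as TATAAA.
S100a4, chr3:90603620-90603769, + strand: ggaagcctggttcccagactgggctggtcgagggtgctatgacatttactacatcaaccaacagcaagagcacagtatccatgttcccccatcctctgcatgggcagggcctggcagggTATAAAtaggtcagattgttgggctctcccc
S100a11, chr3:93520338-93520487, + strand: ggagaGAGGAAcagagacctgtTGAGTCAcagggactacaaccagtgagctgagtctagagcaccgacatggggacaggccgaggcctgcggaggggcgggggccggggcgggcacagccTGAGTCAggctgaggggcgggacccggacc
Anxa2, chr9:69453470-69453619, + strand: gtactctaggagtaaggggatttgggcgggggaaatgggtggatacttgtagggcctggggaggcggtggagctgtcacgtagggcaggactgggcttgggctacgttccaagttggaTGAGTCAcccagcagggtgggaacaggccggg
Anxa4, chr6:86793585-86793734, - strand: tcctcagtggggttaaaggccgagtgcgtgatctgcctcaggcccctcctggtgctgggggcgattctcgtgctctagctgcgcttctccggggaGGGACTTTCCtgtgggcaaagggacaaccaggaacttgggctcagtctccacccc
S100a8, chr3:90668828-90668977, + strand: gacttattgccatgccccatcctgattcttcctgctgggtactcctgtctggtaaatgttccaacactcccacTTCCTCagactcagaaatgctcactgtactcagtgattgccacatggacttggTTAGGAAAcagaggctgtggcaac
S100a9, chr3:90695722-90695871, - strand: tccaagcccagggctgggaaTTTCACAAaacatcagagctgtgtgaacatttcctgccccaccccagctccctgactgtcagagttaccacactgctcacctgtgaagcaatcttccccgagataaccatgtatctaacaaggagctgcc

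The AP-1 letters occurred at 2 places before S100a11 and at 1 place before Anxa2, against 4.24% of all RefSeq promoters with at least 1 match in the 150 bases before the start. Anxa4 held a match to NF-kappaB 55 bases before its RefSeq start (2.63% of all promoters), and S100a4 a TATA match 31 bases before (7.57%). S100a8 and S100a9 each held a C/EBP match (22.7%), and S100a8 and S100a11 each an ETS match (14.5%). S100a6 and Anxa5 held none of the 6 motifs in this window, and no window printed here or searched held the STAT letters (4.09%). The promoter table matched 9 of the 10 genes, and the stretch for Anxa1 lay inside the GENCODE gene and was not searched. The percentages are for the 150 bases directly before each RefSeq start. The windows of S100a8, Anxa2, S100a6, S100a11 and Anxa5 ended 93, 63, 12, 8 and 7 bases further upstream. The ETS matches of S100a8 and S100a11 began 170 and 153 bases before the RefSeq start, so neither lies wholly in the stretch behind the 14.5%. A match describes letters in a window, not a bound site.

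Total counts were 1612435 and 688498 in the Kupffer libraries, called a and b here in the order of the table, and 1182437, 725683, 2271228 and 1775691 in CD40 day 2 a to d. Levels are CPM, a gene's share of the TMM-adjusted library total on edgeR's usual scale. Cd40 itself stood at 20.1 and 18.1 CPM in Kupffer day 0 and at 225 to 382 CPM in CD40 day 2. Adgre1, the macrophage marker F4/80, did not pass the test (mean ± SD 95.4 ± 8.83 against 99.6 ± 61.6 CPM; edgeR, adjusted p = 0.874) and split the CD40 libraries, with 55.5 and 38.2 CPM in a and b and 144 and 160 CPM in c and d. Kupffer cell markers took 0.522% and 0.466% of counts in Kupffer day 0 and 0.00991% to 0.0148% in CD40 day 2, but sinusoidal endothelial markers took 2.07% and 2.24% against 0.0419% to 0.078%, so genes that mark another liver cell type were also high there. Kupffer b stood apart from Kupffer a: neutrophil markers took 0.128% of its counts against 0.0603% in a, hepatocyte markers 0.14% against 0.0599%, and B and plasma cell markers 0.0173% against 0.0018%. In CD40 day 2, library b carried more dendritic cell markers (0.128%, against 0.0632% to 0.077% in the other 3). In bulk libraries such as these, fewer cells of a type and less RNA per cell cannot be told apart.

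Of the 10 genes, 5 were higher in CD40 day 2 by edgeR's quasi-likelihood test at an adjusted p under 0.05 (S100a4, S100a6, S100a11, Anxa2 and Anxa4), 0 were lower and 5 did not pass. Of all genes tested, 23.2% were called higher, 30.2% lower and 53.4% in either direction. The share of members called in either direction is thus close to that of all genes. The groups' libraries did not overlap for the same 5 genes, always with CD40 day 2 above; among all genes tested, 66.6% did not overlap, 29.7% with CD40 day 2 above and 36.9% with it below. The median log2 fold change of the 10 genes was 0.60, against -0.10 over all genes tested. Together they held 0.315% and 0.536% of counts in Kupffer a and b and 0.526% to 0.734% in CD40 day 2.

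**Figure D1:**
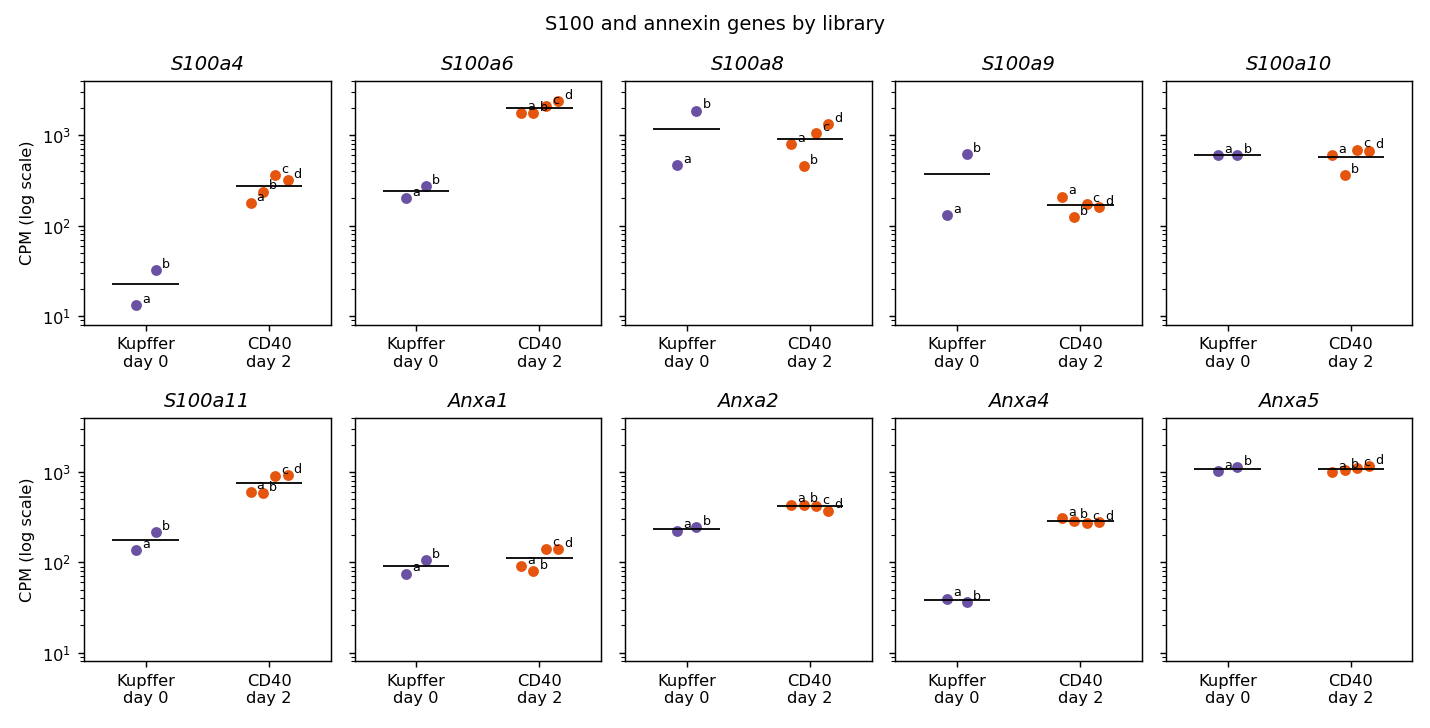
Level of each of the 10 genes in CPM (log axis) in the 2 Kupffer day 0 libraries (a, b) and the 4 CD40 day 2 libraries (a to d); points are libraries and the line is the group mean. S100a4, S100a6, S100a11, Anxa2 and Anxa4 lie higher in all 4 CD40 libraries than in both Kupffer libraries, and S100a8 and S100a9 spread widely between Kupffer a and b.

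S100a4, which binds non-muscle myosin and is known from motile cells, was the member with the fewest counts at day 0. It stood at 13.2 and 32.0 CPM in Kupffer a and b, and at 177, 238, 360 and 319 CPM in CD40 a to d. All 4 CD40 libraries lay above both Kupffer libraries, which held 23 counts each. The log2 fold change was 3.74 ± 0.43 (SE, adjusted p = 6.73e-05), from a mean of 22.6 ± 13.3 (SD, n = 2) to 273 ± 82.2 CPM (n = 4); later values with ± are means with SD over the same libraries, or log2 fold changes with SE. The gene lies on chromosome 3 from 90603771 to 90606045 and shares 302 of its 584 exon bases with Gm42674 on the same strand, a gene not analysed here, so its counts may be incomplete or shared.

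S100a6, or calcyclin, a binder of several cytoskeletal and ubiquitin-pathway proteins, lies near it on chromosome 3 from 90612882 to 90624181. Its levels were 203 and 276 CPM in Kupffer day 0, and 1786, 1768, 2120 and 2383 CPM in CD40 a to d. The CD40 libraries were close to each other and far above both Kupffer libraries. The mean rose from 239 ± 51.7 to 2014 ± 294 CPM, a log2 fold change of 3.08 ± 0.23 (adjusted p = 4.65e-06).

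S100a11, the S100 partner of annexin A1, lies apart from these on chromosome 3 from 93520488 to 93526287. It was at 136 and 217 CPM in Kupffer a and b and at 609, 584, 897 and 932 CPM in CD40 a to d. Here CD40 c and d were the higher pair, as they were for Adgre1, and the lowest CD40 library still exceeded the higher Kupffer one. The log2 fold change was 2.12 ± 0.29 (adjusted p = 0.0002). A processed pseudogene, S100a11-ps, is annotated elsewhere in the genome and could share reads with it.

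Among the annexins, Anxa4, which binds membranes of secretory epithelia and is also found in leukocytes, rose. It stood at 39.6 and 36.2 CPM in Kupffer day 0 and at 309, 290, 275 and 281 CPM in CD40 a to d, so that the libraries of each group lay within a narrow range. The log2 fold change was 2.92 ± 0.19 (adjusted p = 1.97e-06). Anxa4 lies on chromosome 6 from 86736840 to 86793584 and shares 75 of its 4645 exon bases with Gm44036 on the other strand. The cholangiocyte markers, set beside it because bile duct cells also make annexin A4, took 0.00136% and 0.00537% of counts in Kupffer day 0 and 0.00364% to 0.0108% in CD40 day 2. Spp1, which macrophages also express, held 30 of these counts in Kupffer day 0 and 338 in CD40 day 2, and Krt19, a keratin of bile ducts, held 12 and 1. Their part in the result was not tested.

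Anxa2, the annexin that carries S100A10 to the plasma membrane, rose by less. It was at 224 and 244 CPM in Kupffer day 0 and at 435, 436, 421 and 375 CPM in CD40 a to d. The groups did not overlap, with CD40 d the lowest of its group. From 234 ± 14 to 417 ± 28.5 CPM the log2 fold change was 0.84 ± 0.16 (adjusted p = 0.0015). Anxa2 lies on chromosome 9 from 69453620 to 69491795, and 98 of its 3731 exon bases overlap Gm16144 on the other strand.

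S100a10, whose protein has lost calcium binding and pairs with annexin A2, did not pass the test. It stood at 604 and 599 CPM in Kupffer day 0 and at 599, 362, 696 and 676 CPM in CD40 a to d. CD40 b was the low library, and without it the log2 fold change went from -0.04 ± 0.24 (adjusted p = 0.907, 95% interval -0.58 to 0.50) to 0.19 ± 0.15 (adjusted p = 0.288). The gene lies on chromosome 3 from 93555080 to 93564643, close to S100a11.

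Anxa5, which binds exposed phosphatidylserine on dying cells and is the protein behind the annexin V stain, was at 1020 and 1134 CPM in Kupffer day 0 and at 1002, 1057, 1096 and 1173 CPM in CD40 a to d. The groups overlapped over a narrow range. The log2 fold change was 0.01 ± 0.15 (adjusted p = 0.97), with a 95% interval from -0.33 to 0.34. Anxa1, whose protein restrains inflammation through the formyl peptide receptor encoded by Fpr2, was at 75.2 and 106 CPM in Kupffer a and b and at 90.1, 80.6, 142 and 139 CPM in CD40 a to d. CD40 c and d, again the libraries with more Adgre1, were above both Kupffer libraries and CD40 a and b between them; the part of Adgre1-expressing cells in this split was not tested. Its log2 fold change of 0.36 ± 0.28 did not pass the test (adjusted p = 0.295, 95% interval -0.26 to 0.98). Anxa5 lies on chromosome 3 from 36448923 to 36475894 and Anxa1 on chromosome 19 from 20373428 to 20390944.

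The calprotectin genes gave no call, and the 2 Kupffer libraries disagreed on both. S100a8, on chromosome 3 from 90668978 to 90670035, held 811 counts in Kupffer a and 1346 in the shallower Kupffer b, or 466 and 1875 CPM. In CD40 a to d it stood at 797, 457, 1057 and 1327 CPM, all between the Kupffer values except b, which was just below Kupffer a. The log2 fold change was -0.35 ± 0.50 (adjusted p = 0.582, 95% interval -1.47 to 0.77). S100a9, on chromosome 3 from 90692632 to 90695721, was at 131 and 625 CPM in Kupffer a and b and at 210, 124, 174 and 161 CPM in CD40 a to d. All 4 CD40 libraries lay far below Kupffer b, and CD40 b alone was below Kupffer a. The log2 fold change was -1.14 ± 0.46 (adjusted p = 0.0612, 95% interval -2.18 to -0.11).

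Which Kupffer library was kept set the direction. Without Kupffer b, S100a8 was at a log2 fold change of 0.97 ± 0.50 (adjusted p = 0.161) and S100a9 at 0.36 ± 0.30 (adjusted p = 0.368). Without Kupffer a, they were at -1.04 ± 0.45 (adjusted p = 0.111) and -1.90 ± 0.26 (adjusted p = 0.00118). Each of these fits leaves a single Kupffer library, assumed to vary like the CD40 libraries. S100a9 also passed the threshold, as lower in CD40 day 2, with DESeq2 (-1.14 ± 0.49, adjusted p = 0.0425), with library totals alone (-1.29, adjusted p = 0.0339) and with no filter on low counts (-1.09, adjusted p = 2.6e-06). The fit with no filter gave an SE of 0.21, against 0.46 in the main fit. S100a9 did not pass with RLE scaling (adjusted p = 0.0693), upper-quartile scaling (0.0789), edgeR's robust fit (0.13) or limma-voom (-0.65, adjusted p = 0.276).

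Set against each other, Kupffer b held 4.03 times the CPM of Kupffer a for S100a8 (95% counting interval 3.69 to 4.4) and 4.78 times for S100a9 (4.06 to 5.63). These are descriptions of 2 libraries, with exact binomial intervals that cover counting error only. That S100a8 and S100a9 differ between these libraries was known beforehand and prompted the comparison. The intervals and ranks are therefore no independent support for that difference. Among 5231 genes with at least 20 counts in both, S100a9 ranked 4 and S100a8 ranked 10 from the highest ratio, and the middle 95% of genes lay between 0.664 and 1.77. The other 8 genes ranged from 0.914 (Anxa4) to 2.43 (S100a4, interval 1.30 to 4.52). S100a11 stood at 1.60 (1.30 to 1.96) and S100a10 at 0.991 (0.884 to 1.11).

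Neutrophil markers moved with S100a8 and S100a9 between these libraries, though not all of them. Retnlg, a resistin-like protein, stood at 99.3 CPM in Kupffer a and 295 in b (ratio 2.97, 2.42 to 3.65), and Wfdc21 at 32.2 and 103 (3.21, 2.23 to 4.62). Hdc, which makes histamine and is shared with basophils and mast cells, had a ratio of 1.37 (1.10 to 1.70), and Ngp, a granule protein transcribed in neutrophil precursors, one of 1.04 (0.803 to 1.35). Of markers named after their values were seen, G0s2 had a ratio of 4.18 (3.08 to 5.71), Il1r2, a decoy receptor for interleukin-1, one of 9.92 (5.05 to 21.3), and Cxcr2, a chemokine receptor of mature neutrophils, held 1 count in a and 22 in b. Mmp8, Mmp9 and Csf3r were at 4.45, 4.42 and 6.17. The granule protein genes Camp and Ltf, also named so, were at 1.01 and 0.999, and Ly6g held 8 and 6 counts. Of the 24 markers listed, 23 were in the table, and Stfa2, Padi4 and Fcnb held no count in Kupffer day 0. The list took 0.0603% and 0.128% of counts in Kupffer day 0 and 0.0602% to 0.0738% in CD40 day 2. Of 14 markers tested between the groups, 3 were higher, 3 lower and 8 not called. Over all genes tested, 23.2% were higher and 30.2% lower. The part of neutrophil markers in the difference of S100a8 and S100a9 was not tested. The genes above S100a9 in the ranking were Igkc, Lrg1 and Slpi (ratios 24.8, 6.90 and 6.01), named after their values were seen.

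**Figure D2:**
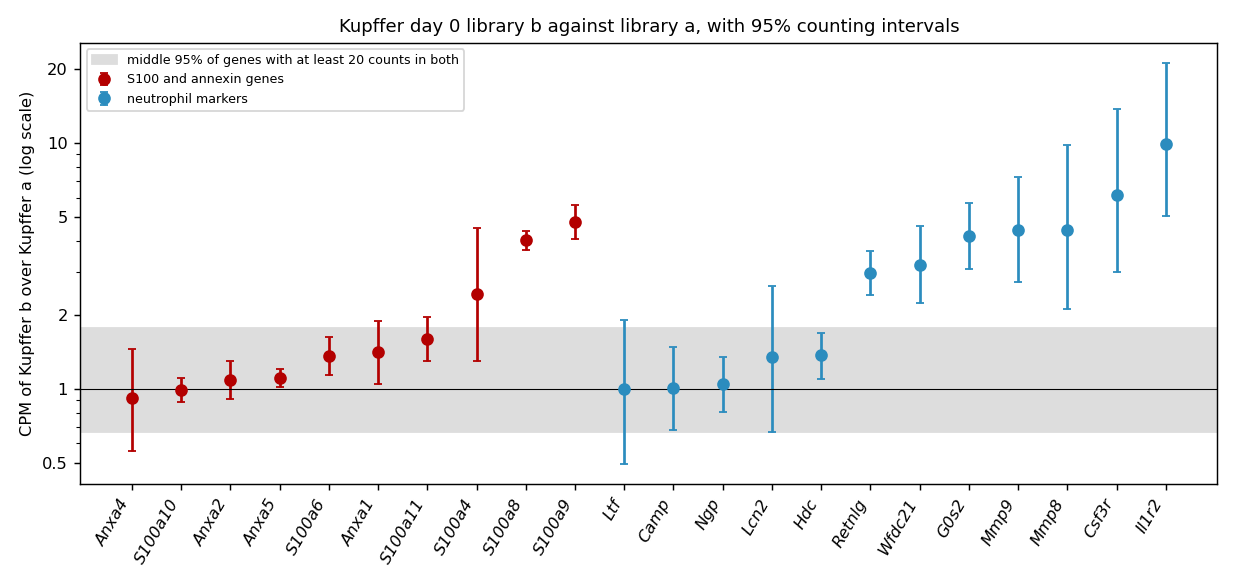
CPM of Kupffer day 0 library b over library a (log axis) for the 10 genes and for neutrophil markers with at least 10 counts in both libraries; bars are 95% counting intervals and the grey band holds the middle 95% of genes with at least 20 counts in both. S100a8 (4.03) and S100a9 (4.78) stand above the band with Retnlg, Wfdc21, G0s2, Mmp9, Mmp8, Csf3r and Il1r2, S100a4 (2.43) also lies above it with an interval that reaches into it, and Ngp, Camp and Ltf lie near 1.

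Ratios of partner genes within a library do not depend on how libraries are scaled. There were 3 such ratios, each tested by a two-sided exact permutation test over the 15 splits of 6 libraries, which cannot give a p under 0.067. S100a11 counts were 1.81 and 2.05 times those of Anxa1 in Kupffer day 0 and 6.34 to 7.25 times in CD40 day 2, a log2 difference of 1.81 between groups that did not overlap (exact p = 0.0667, 0.133 after Benjamini-Hochberg adjustment). The ratio varied little within either group. S100a10 to Anxa2 was at 2.70 and 2.46 in Kupffer day 0 and at 1.38, 0.831, 1.65 and 1.80 in CD40 a to d, again without overlap but with more spread, a log2 difference of -0.92 (exact p = 0.133, adjusted 0.133). S100a8 to S100a9 was at 3.56 and 3.0 in Kupffer a and b. It was at 3.79 and 3.67 in CD40 a and b and at 6.07 and 8.22 in CD40 c and d, a log2 difference of 0.65 (exact p = 0.133, adjusted 0.133). The ratio of this pair thus differed less between Kupffer a and b, which differed in level, than among the CD40 libraries.

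**Figure D3:**
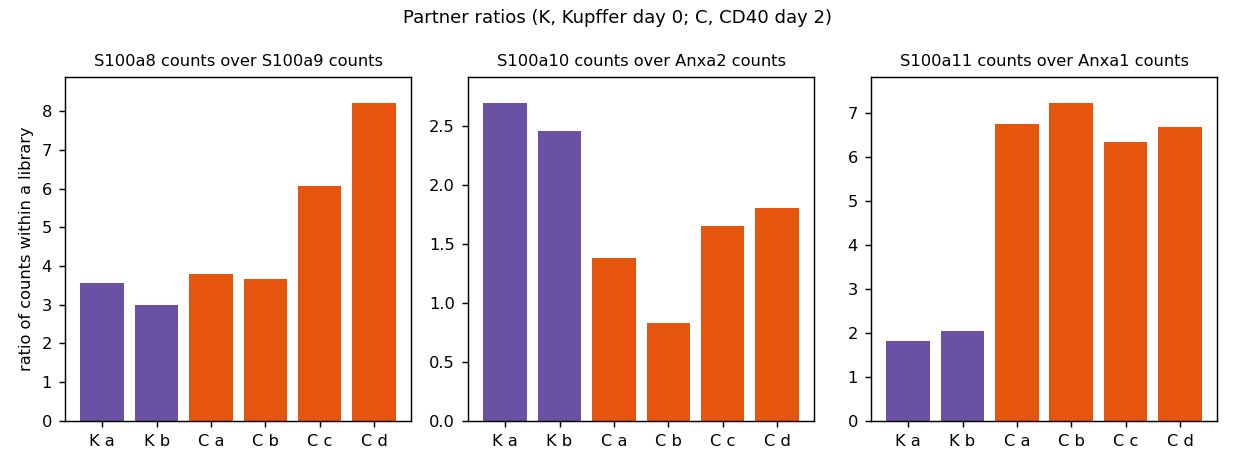
Counts of S100a8 over S100a9, of S100a10 over Anxa2 and of S100a11 over Anxa1 within each library (bars, linear axes from 0; K, Kupffer day 0; C, CD40 day 2). The S100a11 to Anxa1 ratio is 1.81 and 2.05 in the Kupffer libraries and 6.34 to 7.25 in the CD40 libraries.

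Outside the 10 genes, the S100 genes with enough counts went the other way, and all 3 of them were lower in CD40 day 2. Over all genes tested, 30.2% were lower. S100a16 stood at 520.2 and 522 CPM in Kupffer day 0 and at 12.3 to 28.2 CPM in CD40 day 2 (log2 fold change -4.99 ± 0.28, adjusted p = 1.13e-06). S100a1, known from heart muscle as a regulator of calcium release, fell from 154 ± 0.883 to 27.5 ± 6.13 CPM (-2.45 ± 0.20, adjusted p = 9.03e-06). S100a13, a partner in the release of fibroblast growth factor, fell from 560.0 ± 57.3 to 319 ± 34.7 CPM (-0.81 ± 0.16, adjusted p = 0.00203). S100a2, S100a5, S100a7a, S100a14 and S100g held no count in the 6 libraries, and S100a3 and S100b held 4 and 2. Sinusoidal endothelial markers moved in the same direction, with 11 of 11 lower in CD40 day 2 (median log2 fold change -5.77, none at 0 in either group), among them Clec4g (6836 ± 877 against 125 ± 78.0 CPM) and Ehd3 (3703 ± 42.4 against 58.0 ± 12 CPM). Stellate cell markers did too, with 7 of 7 tested lower and shares of 0.181% and 0.148% against 0.00331% to 0.0117%. Their part in the fall of these S100 genes was not tested.

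Along chromosome 3 the S100 genes showed neighbouring genes with unlike directions. From the start of S100a1, the 3 genes that fell begin within 26.2 kb, S100a4 and S100a6 at 92.7 and 102 kb, and S100a8 and S100a9 at 158 and 182 kb. S100a11 and S100a10 lie together at 3009 and 3044 kb, and only the former passed the test.

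**Figure D4:**
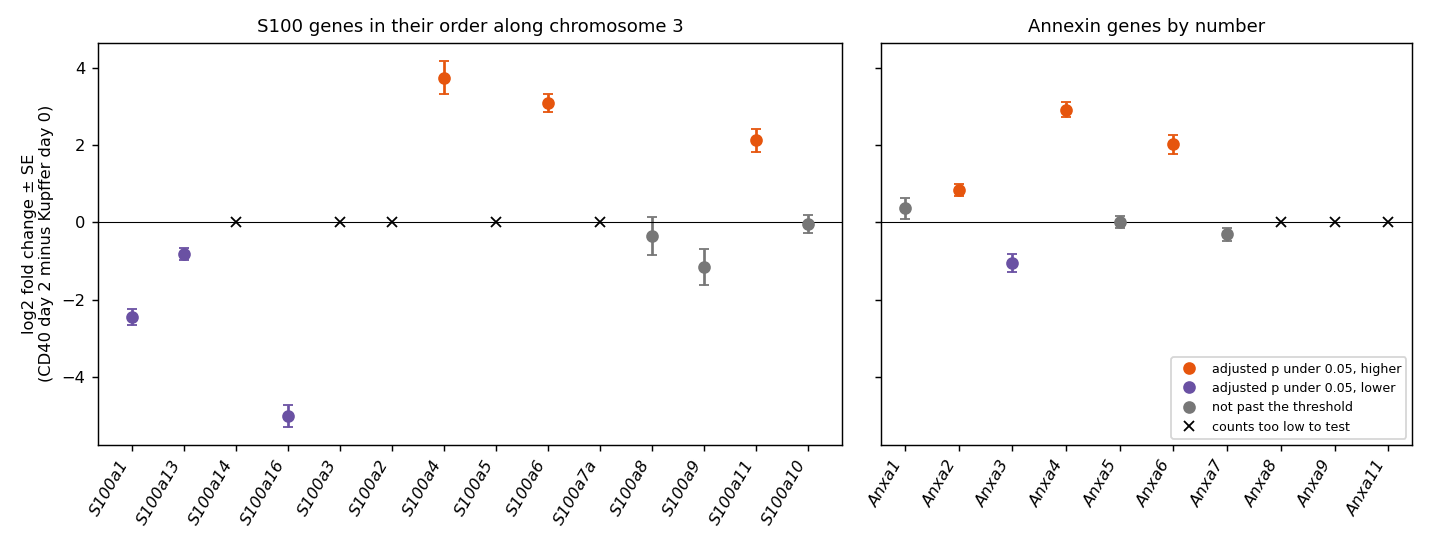
Log2 fold change of CD40 day 2 against Kupffer day 0 with its standard error for S100 genes in their order along chromosome 3 (left) and annexins by number (right); crosses at 0 mark genes with too few counts to test. S100a1, S100a13 and S100a16 are lower in CD40 day 2, S100a4, S100a6 and S100a11 higher, and the annexins range from -1.05 (Anxa3) to 2.92 (Anxa4).

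The other annexins were divided, with 1 of 3 tested higher, 1 lower and 1 not called. Over all genes tested, 23.2% were higher and 30.2% lower. Anxa6, a large annexin tied to endocytosis and cholesterol traffic, rose from 18.2 ± 3.81 to 71.6 ± 8.97 CPM (log2 fold change 2.01 ± 0.25, adjusted p = 0.000108), with 15.5 and 20.9 CPM in Kupffer day 0 and at least 60.2 CPM in each CD40 library. Anxa3 fell from 179 ± 10.4 to 85.2 ± 24.9 CPM (-1.05 ± 0.24, adjusted p = 0.00486); it shares 112 of its 3643 exon bases with Gm42603 on the same strand. Anxa7 was at 120.0 ± 8.16 against 97.0 ± 11.6 CPM, and this difference missed the threshold (-0.31 ± 0.18, adjusted p = 0.165). Anxa9 and Anxa11 were too low to test, with 38 and 5 counts in all, and Anxa8 held none. Anxa11 shares 113 exon bases with Anxa11os on the other strand.

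Receptors of S100 proteins and annexins also moved both ways, with 4 of 10 tested genes higher and 3 lower. Over all genes tested, 23.2% were higher and 30.2% lower. Fpr2, the receptor for annexin A1, rose in all 4 CD40 libraries, from 31.6 and 39.0 CPM to 309, 150, 458 and 359.8 (log2 fold change 3.21 ± 0.43, adjusted p = 0.000191), although Anxa1 itself gave no call. Alcam, an adhesion molecule, was higher too (2.74 ± 0.73, adjusted p = 0.0103). Mcam, an adhesion molecule that binds S100A8 and S100A9, fell from 49.6 ± 12.5 to 1.19 ± 1.18 CPM (-5.61 ± 0.56, adjusted p = 2.93e-05). The scavenger receptor Cd36 and the growth factor receptor Kdr, which is also on the endothelial list, fell by 3.18 and 4.18 on the log2 scale. Ptprj, higher, and Tlr4, Bsg and Fpr1, not called, fall outside the rule for named genes. Of these, Tlr4, a receptor for calprotectin, was at 18.9 ± 0.796 against 17.3 ± 5.35 CPM (-0.07 ± 0.33, adjusted p = 0.877).

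At the cell surface, S100A10 with annexin A2 gathers plasminogen and its activators. Of the 6 tested genes around this complex, 4 were higher and 1 lower, against 23.2% and 30.2% of all genes tested. Plaur, the urokinase receptor, stood at 80.8 ± 35.5 against 394 ± 102 CPM (log2 fold change 2.34 ± 0.34, adjusted p = 0.0003), and Plgrkt, a plasminogen receptor, at 89.3 ± 23.9 against 360.4 ± 117 CPM (2.00 ± 0.32, adjusted p = 0.000611). Plau, urokinase itself, was higher from a low level (7.5 ± 0.76 against 29.6 ± 12 CPM; 1.98 ± 0.44, adjusted p = 0.00389). Serpinb2, an inhibitor of urokinase and also among the 4, held 37 counts over the CD40 libraries against 1 over the Kupffer libraries (adjusted p = 0.018). It held 10, 2, 21 and 4 counts in CD40 a to d, so it passed the low-count filter only through CD40 libraries. Dlc1, a GTPase-activating protein that binds S100A10, was lower (276 ± 35.3 against 6.2 ± 2.42 CPM; -5.42 ± 0.25, adjusted p = 5.05e-07). Ahnak, a scaffold bound by the complex, was at 92.5 ± 4.77 against 82.5 ± 35.4 CPM and gave no call (adjusted p = 0.758).

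Of 9 tested genes of membrane repair, a process in which annexins patch torn plasma membrane, 3 were higher and 2 lower. The share called in either direction is close to the 53.4% of all genes tested. The ferlins parted: Myof rose from 7.67 ± 2.96 to 73.9 ± 35.0 CPM (log2 fold change 3.18 ± 0.53, adjusted p = 0.000683), while Dysf, which binds annexins A1 and A2, fell from 46.7 ± 6.99 to 1.59 ± 2.15 CPM (-4.82 ± 0.58, adjusted p = 9.74e-05). Chmp4b, an ESCRT-III subunit, and Sdcbp, or syntenin, were higher (1.51 ± 0.23, adjusted p = 0.000443, and 0.89 ± 0.16, adjusted p = 0.00106). Capn2, a calpain, was lower (-1.73 ± 0.21, adjusted p = 8.89e-05). Pdcd6, the EF-hand protein ALG-2, was at 163 ± 22.1 against 212 ± 13.5 CPM and not called (adjusted p = 0.0706).

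Classical monocyte markers moved in the direction of the 5 genes that rose. In this list 8 of 10 were higher and 0 lower, against 23.2% and 30.2% of all genes tested. The median log2 fold change of the list was 3.13. Its share of counts was 0.176% and 0.152% in Kupffer day 0 and 1.63% to 2.21% in CD40 day 2. Ly6c2 stood at 585 ± 89.1 against 7092 ± 1218 CPM, Plac8 at 555 ± 20.6 against 6909 ± 571, Ly6i at 137 ± 18.3 against 3715 ± 854, and Ms4a4c at 71.4 ± 9.27 against 1596 ± 237. No marker of this list was at 0 in either group, and the part of monocyte RNA in the rise of S100a4, S100a6, S100a11, Anxa2 and Anxa4 was not tested. Between Kupffer a and b these markers did not follow S100a8 and S100a9: Ly6c2 and Plac8 had ratios of 0.806 and 0.949. Mesothelial cells, which also make several S100 proteins and annexins, left little RNA in CD40 day 2, where 5 of 7 markers were at 0 (Msln, Upk1b, Wt1, Lrrn4 and Gpm6a) and the list took at most 0.000169% of counts. In Kupffer a and b it took 0.000434% and 0.00639%, so these markers too were higher in the library where S100a8 and S100a9 were high, and their part in that difference was not tested.

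**Figure D5:**
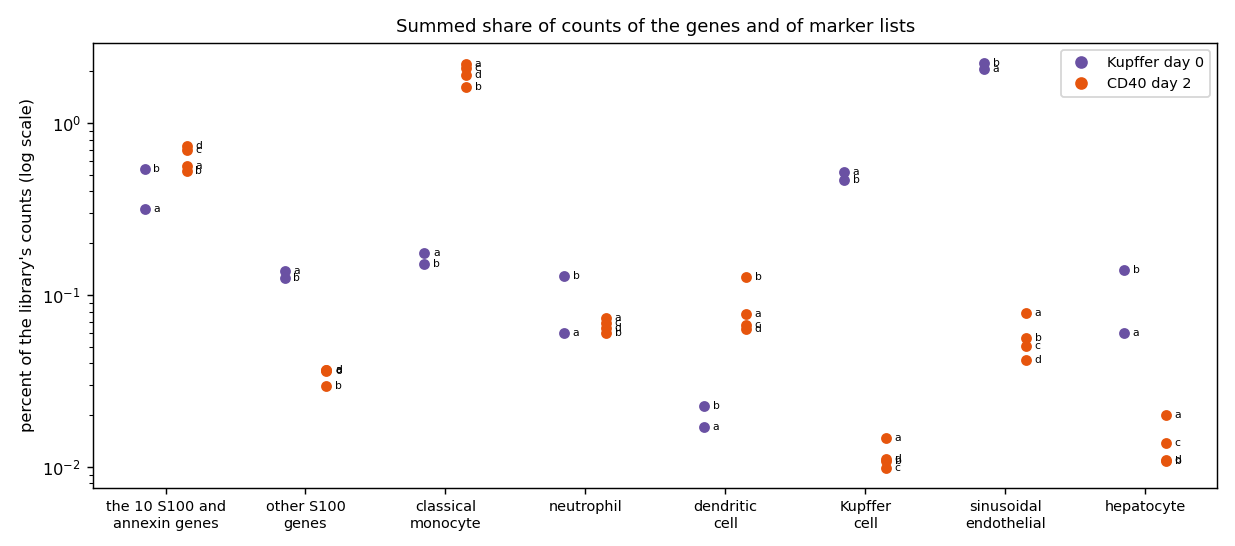
Summed share of each library's counts (percent, log axis) for the 10 genes, the other S100 genes and marker lists; points are libraries a to d of each group. Kupffer b lies above Kupffer a for the 10 genes (0.536% against 0.315%), for neutrophil markers (0.128% against 0.0603%) and for hepatocyte markers (0.14% against 0.0599%), and the CD40 libraries carry 1.63% to 2.21% classical monocyte markers.

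Among themselves, the 5 genes that rose ran together over the 6 libraries (Pearson r of log2 CPM 0.915 to 0.992), as any genes with the same difference between groups would. S100a8 and S100a9 correlated at 0.782, and S100a8 with S100a4 at 0.128. These values describe 6 libraries of 2 groups and carry no test. Of 5660 other genes with a mean of at least 20 CPM, those most like S100a9 were Retnlg (r = 0.978), Csrnp1 (0.965) and Zcchc8 (0.941). Like S100a9, these were highest in Kupffer b. Retnlg stood at 295 CPM there against 99.3 to 130 elsewhere, Csrnp1 at 245 against 146 to 193, and Zcchc8 at 65.5 against 39.6 to 45.4. Their likeness thus rests largely on that library, and for Retnlg it largely restates the difference between Kupffer a and b given above. Those most like S100a8 were Plk3 (0.941), Eif4g2 (0.923) and Rab31 (0.916). Most like S100a4 were Sin3b, Fuca1 and Mtmr14 (0.998 each), and Cox5a and Ube2l6 were among those most like Anxa2 (0.998 each).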

How the data were processed

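Libraries read the 3′ ends of poly(A) RNA in bulk, with sample barcodes and unique molecular identifiers, per the labels' protocols. The authors deposited raw counts per gene symbol for 12 columns. The submitters' processing notes name GRCm38.p6 and DESeq2 1.22.2. Aligner, annotation and the choice between reads and molecular identifiers as counts were not given in the sources used here. Left unread by gene were the columns of Kupffer cells at day 7 and of Ly6C CD40-negative cells: the rows are sorted by Kupffer day 0 a, yet column a of each of these groups also falls along the table with 1 step up. Column names carry no replicate number, so letters are names only.

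The 6 libraries were fitted with edgeR 4.0.16 (R 4.3.3; TMM, filterByExpr defaults, quasi-likelihood test, two-sided), with Benjamini-Hochberg adjustment over 9852 genes and a threshold of 0.05. Library pairs of a group all differed by more than sampling noise. Intervals of fold changes are 95% and use the fit's degrees of freedom; the SE is the log2 fold change over the root of F. Likeness used log2 CPM with a prior count of 2. Alternatives were DESeq2 1.42.0, limma-voom (limma 3.58.1), other scalings and filters, and each library left out. On simulated data with 9254 genes tested, 81.6% of 4-fold and 25.8% of 2-fold changes were recovered. There, 97 genes changed 2-fold and 87 changed 4-fold, a far smaller share than the 53.4% of genes called here. The adjusted p threshold was thus harder to reach in the simulation, so its rates do not describe recovery in these data. Counting intervals cover counting error only.

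The members and lists were chosen with earlier results of these data known. Named are the 10 members, all other S100 genes and annexins, up to 6 genes of each related list by adjusted p, up to 4 of a marker list by level plus markers at 0, and the 3 genes most like S100a8, S100a9, S100a4 and Anxa2; a few genes the rule names are not reported here. Gene positions are from GENCODE M21 (GRCm38).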

Additional observations from a re-analysis of the deposited data

How the results depend on the processing

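The 5 genes called higher were called in the main analysis and in all 15 alternatives, with log2 fold changes from 3.09 to 4.37 for S100a4, 2.87 to 3.32 for S100a6, 1.80 to 2.48 for S100a11, 0.67 to 0.92 for Anxa2 and 2.75 to 3.0 for Anxa4. The number of members called lower was 0 and became 1 (S100a9) with library totals alone, with DESeq2, with no filter and without Kupffer day 0 a; over the leave-one-out fits it ran from 0 to 1. Signs turned for genes that were not called: S100a10 (0.041 with upper-quartile factors; -0.14 without CD40 c to 0.19 without CD40 b), Anxa5 (-0.15 with library totals alone, -0.12 with at least 10 counts in 4 libraries, -0.071 without Kupffer a to 0.087 without Kupffer b, -0.0026 without CD40 c and -0.04 without CD40 d), S100a8 (-1.04 without Kupffer a to 0.97 without Kupffer b) and S100a9 (-1.90 to 0.36 for the same libraries). The cause was not tested. Over all genes, leaving out 1 library gave 1406 to 2551 genes higher and 1800 to 2963 lower, against 2288 and 2974; the lowest counts, 1406 and 1800, came without Kupffer a, and without Kupffer b they were 1653 and 2379. Library totals alone moved the median log2 fold change of all genes from -0.10 to -0.27. The 3 partner ratios kept their sign under each alternative run. No paired analysis was possible because the labels give no pairing of libraries between the groups, and the column names carry no replicate number. Over the 2 Kupffer libraries S100a4 rests on 46 counts and Anxa4 on 95, which limits the counting precision of their day 0 levels.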

Other observations

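Of 11 tested genes listed as other calcium-binding EF-hand proteins, 8 were higher in CD40 day 2, 1 was lower and 2 were not called, where 23.2% of all genes tested were higher and 30.2% lower. Gca, or grancalcin, a protein of phagocytes, was at 2.42 ± 1.45 CPM in Kupffer day 0 (7 counts) and 97.2 ± 25.4 CPM in CD40 day 2 (log2 fold change 5.05 ± 0.44, adjusted p = 1.18e-05). Plek, a substrate of protein kinase C that is on this list although it is known for its pleckstrin-homology domains and not for EF-hands, was at 93.4 ± 35.4 against 739 ± 116 CPM (3.02 ± 0.28, adjusted p = 1.62e-05), Lcp1, the leukocyte actin bundler L-plastin, at 129 ± 19.8 against 743 ± 139 (2.53 ± 0.23, adjusted p = 1.69e-05), and Efhd2 at 91.0 ± 19.1 against 485 ± 36.9 (2.43 ± 0.20, adjusted p = 7.59e-06). Calm2, a calmodulin gene, was the 1 called lower (2060 ± 27.8 against 495 ± 47.4 CPM; -2.05 ± 0.15, adjusted p = 3.99e-06), and its groups did not overlap.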
